A study of Mus musculus with 4 samples.

Results

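10 genes whose proteins write, remove or complement the histone marks of active enhancers were examined in wild-type mouse B cells: Kmt2a, Kmt2b, Kmt2c, Kmt2d, Kmt2e, Kdm1a, Kdm5a, Kdm6b, Ep300 and Crebbp. They were chosen by name, as H3K4 methyltransferase genes of the KMT2 family, H3K4 and H3K27 demethylase genes and H3K27 acetyltransferase genes, and they are 10 of the 20599 gene symbols in the deposited RNA-Seq tables. Their expected counts, in which RSEM divides a read among the gene entries it could come from, were summed for each symbol. RNA-Seq had been performed on B1a cells, the innate-like B cells of the body cavities, and on follicular B2 cells, the main recirculating B cells of the spleen, with 2 libraries of each. All 4 libraries were labelled as wild-type C57BL/6 mice 4 weeks of age, without a treatment. By the methods, peritoneal B1a cells were sorted as CD23- IgM+ CD5+ and splenic follicular B2 cells as IgDhi IgMlo CD21+. Their RNA-Seq section names littermate controls of animals in which a B-lineage Cre deleted floxed Dnmt3a, while their section on mice names C57BL/6J controls. The mice for follicular cells were, by the methods, older than those for B1a cells, unlike in the labels. A supplementary legend of the study instead gives 4 weeks for both cell types in its repertoire data from RNA-Seq reads, as the labels do. The groups therefore differ at once in cell type, in tissue and, going by the methods, in age, and these cannot be told apart. In bulk RNA, fewer cells that use a gene and less RNA of it in each cell cannot be told apart either.

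Enhancers carry monomethylated H3K4, written largely by KMT2C and KMT2D, and, when active, acetylated H3K27, written by EP300 and CREBBP. KMT2A and KMT2B bind unmethylated CpG through a CXXC domain and mostly serve promoters, whereas KDM1A and KDM5A remove methyl groups from H3K4 and KDM6B removes them from H3K27. H3K4 methylation and DNA methylation are linked, since trimethylated H3K4 keeps the ADD domain of DNMT3A from binding the H3 tail. In B cells, KMT2D, CREBBP and EP300 are recurrently mutated in lymphomas of germinal center origin.

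The libraries held between 11032732 and 18588623 counts, and the 10 genes together took between 0.669% and 0.736% of them. The lowest member count was 595 for Kdm1a in B1a replicate 1 and the highest 38583 for Kmt2d in B2 replicate 2, so that all members lay far above 3 counts, taken as the floor of detection (an interval of counting error only). After edgeR's filter on low counts 12078 genes were tested. The methods name 2 control mice for each cell type, and the labels do not tie a library to a mouse, so p-values measure the spread between these libraries. The 5 B1a markers (Cd5, Spn, Bhlhe41, Zbtb32 and Itgam) summed to between 892 and 1181 CPM (counts scaled to a common library total, with TMM factors) in B1a and between 75.3 and 75.8 in B2 cells. The follicular markers Fcer2a and Cr2 summed to between 153 and 162 CPM in B1a and between 1900 and 1940 CPM in B2 cells. Macrophage markers (9 genes) summed to between 228 and 254 CPM in B1a and between 64.5 and 70.8 in B2 cells, with 1 of 8 tested genes called, 6 genes higher in both B1a libraries and 1 at or under 3 counts in B1a. The erythroid sum was 504 CPM in B1a replicate 2 and at most 80.8 CPM in the other 3 libraries, with 1 of 5 tested genes called. That gene, Hba-a2, had 35.5 and 96.5 CPM in B1a and 5.05 and 7.45 CPM in B2 cells. The mast cell sum was between 6.74 and 34.4 CPM in B1a and at most 0.940 CPM in B2 cells. Of its 2 tested genes, 1 was called, Cma1, higher in B1a. T cell markers summed to between 80.7 and 127 CPM in B1a and between 100.2 and 106 CPM in B2 cells, and neutrophil markers to at most 10.9 CPM in any library. The part of these other cells in the values of the 10 genes was not tested.

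Transcripts of all 10 genes were abundant in both B-cell types. In TPM, a level corrected for transcript length and so comparable between genes, the order from the highest mean level in B1a cells was Kmt2d (243), Kmt2e (227), Kmt2a (219), Crebbp (130), Ep300 (122), Kmt2c (117), Kmt2b (92.7), Kdm5a (78.5), Kdm6b (58.3) and Kdm1a (49.9). Each mean in that order lay above those of at least 81.8% of all gene symbols, many of them without a count, and of at least 68.9% of the tested genes. Neighbors with overlapping ranges over the 2 libraries were Kmt2d and Kmt2e, Crebbp and Ep300, Kmt2b and Kdm5a, and Kdm6b and Kdm1a. The order by mean TPM in B2 cells was Kmt2d (281), Kmt2e (237), Kmt2a (215), Crebbp (208), Ep300 (196), Kmt2c (138), Kmt2b (99.2), Kdm5a (95.2), Kdm1a (76.6) and Kdm6b (63.3), with overlap between Kmt2e and Kmt2a, Kmt2a and Crebbp, Crebbp and Ep300, and Kmt2b and Kdm5a. The first 8 places were thus the same in both cell types, and only Kdm1a and Kdm6b exchanged places. The ranges of Crebbp and Ep300 lay below that of Kmt2a in B1a cells, whereas both overlapped that of Kmt2a in B2 cells.

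**Figure D1:**
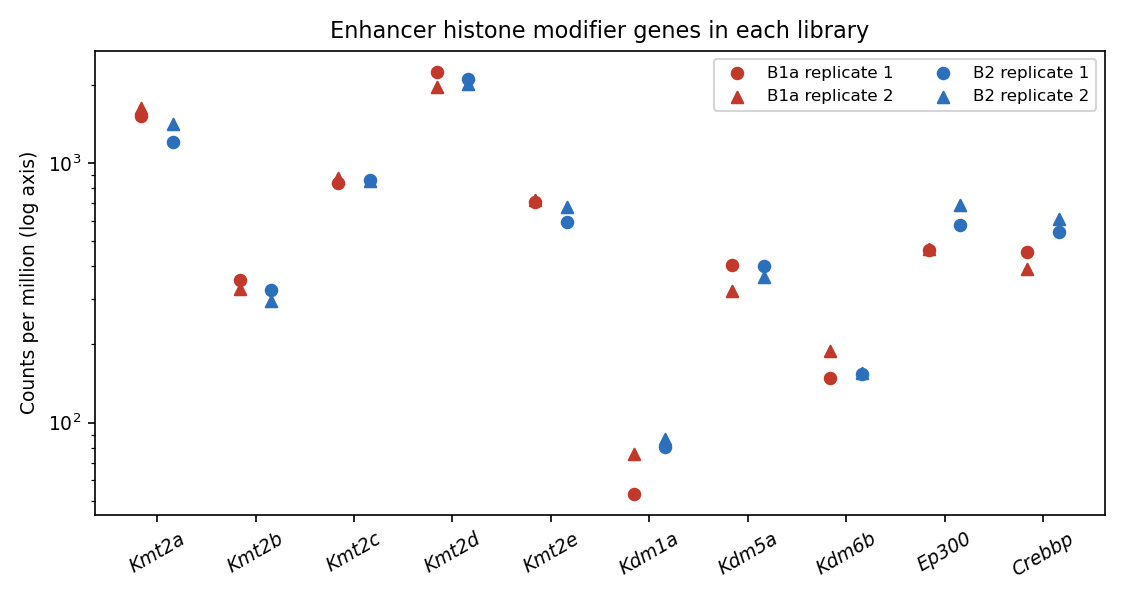
TMM-scaled CPM of the 10 genes (log axis) in the 2 B1a libraries (red) and the 2 B2 libraries (blue), with 1 point for each library. Both B1a points lie below both B2 points for Kdm1a, Ep300 and Crebbp and above them for Kmt2a, Kmt2b and Kmt2e, in a scaling under which the median log2 fold change of all tested genes was -0.03, while on the TPM scale the fold changes of Kmt2b and Kmt2e have the opposite sign.

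To ask whether the enzymes of enhancer chromatin differ in transcript level between B1a and B2 cells, the CPM of each gene were compared with edgeR's quasi-likelihood test, with p-values adjusted by Benjamini-Hochberg over the 12078 genes, at a threshold of 0.05. None of the 10 genes passed (0 of 10), against 693 of all tested genes (5.74%). Long genes of a mean of at least 50 CPM, as the members are, were called more often. The share was 9.13% at over 3000 and up to 5000 bases, 11.5% up to 10000 bases and 12.4% beyond. At an unadjusted p under 0.05, 2 of the 10 genes (Ep300 and Crebbp, both lower in B1a) passed in edgeR, against 20.9% of all genes in either direction and 9.22% of all genes lower in B1a. The same 2 genes were called by DESeq2 (13.5% of 11609 genes with an adjusted p) and by limma-voom weighted by cell type (11.7% of all genes), and 0 by limma-voom without weights (7.26% of all genes). The B1a and B2 values did not overlap for 6 of the 10 genes, against 54.3% of all tested genes; 3 were lower in both B1a libraries (29.1% of all genes) and 3 were higher in both (25.3% of all genes). Those shares are near the background. Members' log2 fold changes ran from -0.45 to 0.27 with a median of 0.01 and a median size of 0.16, where the median over all tested genes was -0.03 and the median size 0.48. That median size is not matched for level, since all tested genes include many with lower and more variable counts. The median absolute log2 ratio of the B1a replicates was 0.47 over 10418 tested genes above 3 counts in every library. It was 0.25 over the 3842 of at least 500 counts.

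**Figure D2:**
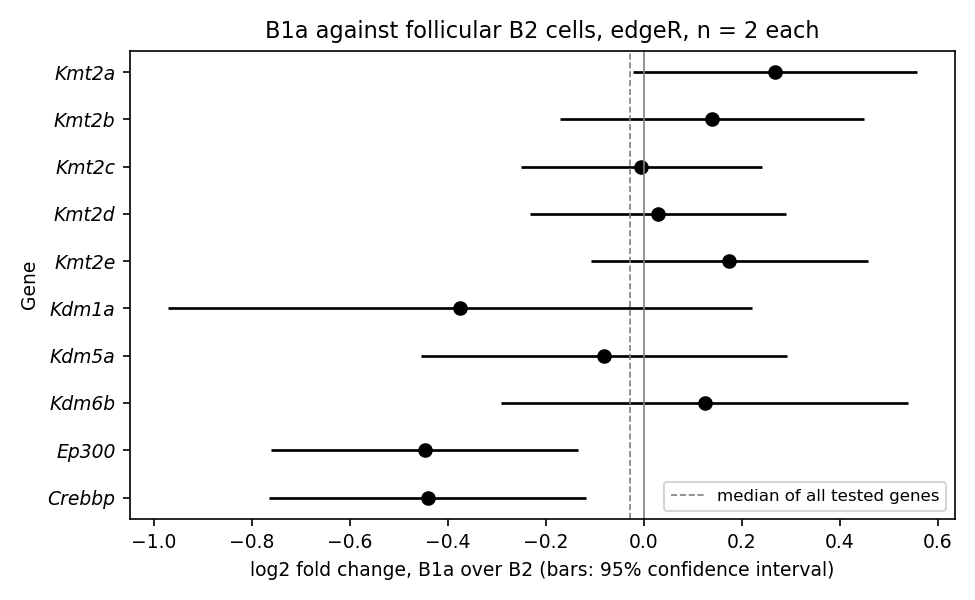
Log2 fold change of each gene (B1a over B2, edgeR, points) with its unadjusted 95% confidence interval (bars). The dashed line is the median of all tested genes (-0.03), and only the intervals of Ep300 (-0.76 to -0.13) and Crebbp (-0.76 to -0.12) exclude 0.

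Ep300 and Crebbp, which encode the paralogous acetyltransferases p300 and CBP, had the members' lowest levels in B1a relative to B2 cells. Ep300 had 460 and 466 CPM in the B1a libraries and 576 and 687 CPM in the B2 libraries. Crebbp had 455 and 391 CPM in B1a and 542 and 606 CPM in B2 cells. Every B1a value lay below every B2 value for both genes. The fitted level of Ep300 in B1a cells was 73.4% of that in B2 cells (log2 fold change -0.45, SE 0.13, Benjamini-Hochberg adjusted p = 0.123 by edgeR's quasi-likelihood test, unadjusted p = 0.0132). That of Crebbp was 73.7% (log2 fold change -0.44, SE 0.13, adjusted p = 0.136 by the same edgeR test, unadjusted p = 0.0160). These calls turned on the method: the adjusted p was 0.0126 for Ep300 and 0.0239 for Crebbp in DESeq2, and 0.0496 and 0.0460 in limma-voom weighted by cell type. Without B1a replicate 1, where edgeR called 31.0% of all genes tested, the adjusted p was 0.000962 for Ep300 and 3.37e-05 for Crebbp. Without B2 replicate 2, where it called 4.45%, the adjusted p was 0.9999 and 0.947, with log2 fold changes of -0.32 and -0.36. The ratio of Ep300 to Crebbp TPM within a library was 0.944 ± 0.109 (SD, n = 2) in B1a and 0.941 ± 0.0425 (SD, n = 2) in B2 cells, a difference smaller than the spread between replicates.

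Relative to the KMT2 genes of the same library, the acetyltransferase pair was lower in B1a cells, a ratio that does not depend on scaling between libraries. The TPM of Ep300 and Crebbp summed to 28.8% and 27.3% of the summed TPM of the 5 Kmt2 genes in the B1a libraries and to 39.6% and 43.7% in the B2 libraries. The means were 28.0% ± 1.07 (SD, n = 2) in B1a and 41.6% ± 2.87 (SD, n = 2) in B2 cells, and the groups did not overlap. Demethylase transcripts (Kdm1a, Kdm5a and Kdm6b) summed to 19.9% and 21.7% of the KMT2 sum in B1a and to 24.9% and 23.5% in B2 cells. Those means were 20.8% ± 1.26 and 24.2% ± 0.978 (SD, n = 2 each), and these groups did not overlap either. For single genes in CPM, the groups did not overlap for 54.3% of all tested genes. These ratios are sums over chosen genes and are given as a description, without a test.

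**Figure D3:**
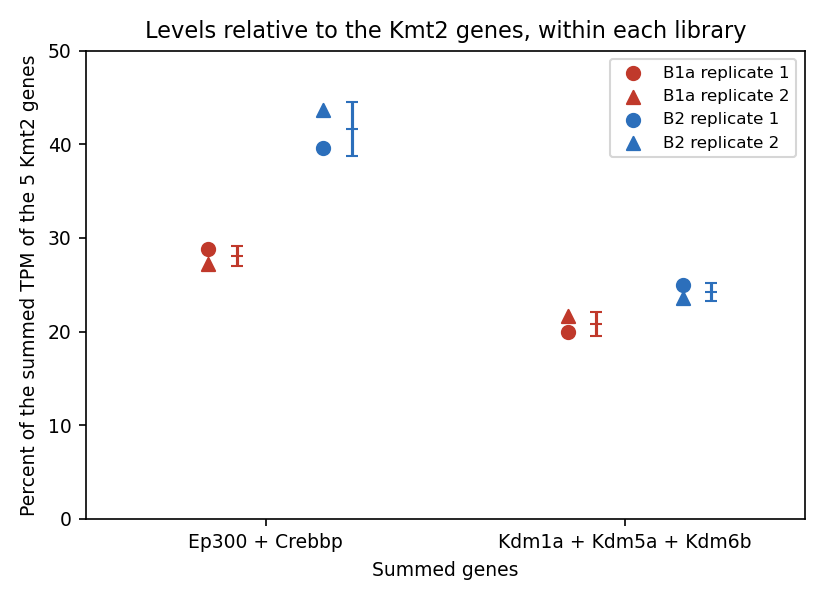
Summed TPM of Ep300 and Crebbp (left) and of Kdm1a, Kdm5a and Kdm6b (right) as a percent of the summed TPM of the 5 Kmt2 genes in the same library, with the group mean and SD beside the points (n = 2 each). The B1a libraries lie at 28.8% and 27.3% and the B2 libraries at 39.6% and 43.7% for the acetyltransferase genes.

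Among the methyltransferase genes, Kmt2c and Kmt2d, the main sources of enhancer H3K4 monomethylation, had nearly equal CPM in B1a and B2 cells. Kmt2c had 835 and 876 CPM in B1a and 862 and 856 CPM in B2 cells, which overlapped (log2 fold change -0.0047, SE 0.10, adjusted p = 0.986 by edgeR's quasi-likelihood test). Kmt2d had 2242 and 1956 CPM in B1a and 2100 and 2016 CPM in B2 cells, which overlapped as well (log2 fold change 0.03, SE 0.11, adjusted p = 0.923 by edgeR). The 95% interval of the B1a to B2 ratio ran from 0.841 to 1.18 for Kmt2c and from 0.851 to 1.22 for Kmt2d. Within a library the TPM of Kmt2d was 2.08 ± 0.271 (SD, n = 2) times that of Kmt2c in B1a and 2.03 ± 0.0483 (SD, n = 2) times in B2 cells. On the TPM scale, where the median log2 fold change of all genes was -0.30, the log2 fold change of Kmt2d was -0.21 and that of Kmt2c -0.24, both above that median. The overlap in CPM did not hold in TPM, where both B1a values of each gene lay below both B2 values. Kmt2c had 115 and 118 TPM in B1a and 140 and 137 TPM in B2 cells. Kmt2d had 262 and 223 TPM in B1a and 289 and 273 TPM in B2 cells.

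Kmt2a, Kmt2b and Kmt2e each had B1a values above both B2 values on the CPM scale, and none passed the test. Kmt2a, which encodes MLL1, had 1516 and 1625 CPM in B1a and 1199 and 1410 CPM in B2 cells (log2 fold change 0.27, SE 0.12, 95% interval -0.02 to 0.56, adjusted p = 0.276 by edgeR). Kmt2b, which encodes its closest paralog, had 355 and 327 CPM in B1a and 325 and 294 CPM in B2 cells, with a gap between the groups smaller than the distance between replicates (log2 fold change 0.14, SE 0.13, adjusted p = 0.617 by edgeR). Kmt2e, which encodes a SET-domain protein without established H3K4 methyltransferase activity, had 708 and 721 CPM in B1a and 591 and 675 CPM in B2 cells (log2 fold change 0.18, SE 0.12, adjusted p = 0.472 by edgeR). On the TPM scale the log2 fold change was -0.10 for Kmt2b and -0.06 for Kmt2e, signs opposite to those in CPM, while that of Kmt2a stayed positive in all 14 alternatives, at 0.03 to 0.38. In edgeR Kmt2a was called without B1a replicate 1 (adjusted p = 0.00248) and without B1a replicate 2 (adjusted p = 0.0366), fits in which 31.0% and 48.9% of all tested genes were called.

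Kmt2b lies next to Zbtb32, a zinc-finger repressor gene expressed in B1a cells that was singled out after its values were seen. Kmt2b occupies chr7:30568855-30589056 and Zbtb32 chr7:30589680-30602819 (GRCm38, RefSeq), both on the minus strand and 623 bases apart. Zbtb32 had 297 and 245 CPM in B1a and 3.64 and 2.56 CPM in B2 cells (log2 fold change 6.47, SE 0.27, adjusted p = 0.00054 by edgeR's quasi-likelihood test), beside 0.14 for Kmt2b. For each member, the nearest RefSeq protein-coding gene that did not overlap it was taken on each side, 20 in all. Of the 13 of these that were tested, 1 was called, Zbtb32, against 5.74% of all tested genes.

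Kdm1a, which encodes the H3K4 mono- and dimethyl demethylase LSD1, was the least abundant member in CPM and the most variable between B1a replicates. It had 53.3 and 75.6 CPM in B1a and 80.6 and 86.6 CPM in B2 cells, so that both B1a libraries were lower (log2 fold change -0.37, SE 0.24, 95% interval -0.97 to 0.22, adjusted p = 0.464 by edgeR's quasi-likelihood test). The B1a replicates differed 1.42-fold, while the gap from the higher B1a to the lower B2 library was smaller. It was called without B1a replicate 2 (log2 fold change -0.65, adjusted p = 0.00708 by edgeR), where 48.9% of all tested genes were called, and in no other alternative. Kdm6b, which encodes the H3K27 demethylase JMJD3, had 149 and 188 CPM in B1a and 154 and 155 CPM in B2 cells, with the B2 values inside the B1a range (log2 fold change 0.12, SE 0.17, adjusted p = 0.764 by edgeR, and -0.12 on the TPM scale). Kdm1a, Kdm5a and Kdm6b had the largest folds between B1a replicates of the 10 genes, 1.42, 1.26 and 1.26. The median over the members was 1.12 in B1a and 1.11 in B2 cells, beside 1.19 and 1.09 for the 3842 tested genes with at least 500 counts in every library.

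Kdm5a, which encodes an H3K4 tri- and dimethyl demethylase, had 403 and 321 CPM in B1a and 402 and 364 CPM in B2 cells, which overlapped (log2 fold change -0.08, SE 0.15, adjusted p = 0.838 by edgeR's quasi-likelihood test). Unlike the other 9 members it had 2 entries in the deposited tables, 10969 and 9935 bases long, and RSEM had divided its reads differently between the cell types. The shorter entry held 35.2% and 29.6% of the Kdm5a counts in B1a and 0% and 7.28% in B2 cells. Its expected counts were 1584 and 1058 in B1a and 0 and 507 in B2 cells, with posterior standard deviations of 92.5, 102, 37.9 and 81.1 counts. Both B1a shares lay above both B2 shares. Fitted as separate entries, the longer one had a log2 fold change of -0.60 (SE 0.15, adjusted p = 0.0943 by edgeR's quasi-likelihood test) and the shorter one of 3.13 (SE 1.56, adjusted p = 0.339), so that neither was called. For the 9 members with 1 entry the posterior standard deviation was at most 0.0842% of the count. Where the shorter entry lies was not given in the sources used here, and the sum over both is the value used above.

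**Figure D4:**
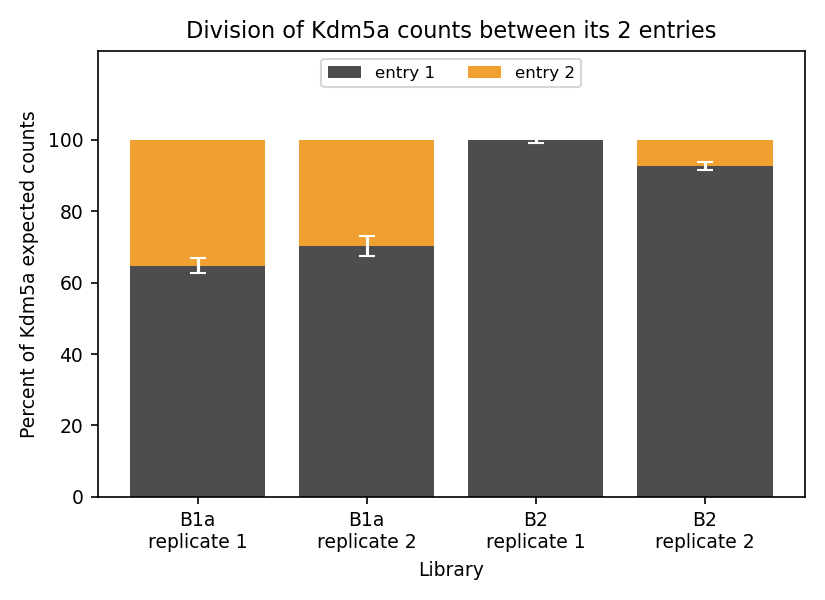
Percent of the Kdm5a expected counts that RSEM gave to the longer entry 1 (grey) and the shorter entry 2 (orange) in each library, with the posterior standard deviation of the entry 1 count as white bars. Entry 2 held 35.2% and 29.6% in the B1a libraries and 0% and 7.28% in the B2 libraries.

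To set the 10 genes beside their partners and counterparts, 55 related genes in 5 lists were followed, of which 54 were tested. edgeR's quasi-likelihood test called 0 of the 54 (lowest Benjamini-Hochberg adjusted p = 0.0560), where it called 5.74% of all tested genes. At an unadjusted p under 0.05, 13 passed, 2 higher and 11 lower in B1a (20.9% of all tested genes in either direction and 9.22% lower in B1a). Other tools called 5 (DESeq2), 2 (limma-voom) and 2 (limma-voom with weights). In 30 of the 54 both B1a values lay below the B2 values, and in 7 they lay above them (29.1% and 25.3% of all tested genes).

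Histone acetyltransferases other than the members, with p300/CBP coactivators and BET bromodomain readers of acetylated histones, formed a list of 15 tested genes with a median log2 fold change of -0.26. Both B1a libraries were lower for 10 of them (29.1% of all tested genes) and higher for 0 (25.3% of all tested genes). An unadjusted edgeR p under 0.05 was found for 3, all lower in B1a (9.22% of all tested genes). Brd3, a BET reader, had 63.0 and 68.2 CPM in B1a and 128 and 111 CPM in B2 cells (log2 fold change -0.87, SE 0.18, adjusted p = 0.0560 by edgeR). Kat6a, an acetyltransferase of the MYST family, had 403 and 443 CPM in B1a and 571 and 619 CPM in B2 cells (log2 fold change -0.49, SE 0.12, adjusted p = 0.0770 by edgeR). Both had B1a values below B2 values without overlap, as Ep300 and Crebbp had. The median of the list was between -0.59 and -0.18 in the alternatives that summed entries by symbol.

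The complexes in which KMT2 and SET1 enzymes work gave 14 tested genes with a median log2 fold change of -0.27. Both B1a libraries were lower for 8 (29.1% of all tested genes) and higher for 2 (25.3% of all tested genes). An unadjusted edgeR p under 0.05 was found for 2, both lower in B1a (9.22% of all tested genes). Setd1a, the catalytic subunit of a promoter H3K4 trimethylase, had 140 and 132 CPM in B1a and 171 and 180 CPM in B2 cells (log2 fold change -0.37, SE 0.14, adjusted p = 0.223 by edgeR). Its paralog Setd1b had 144 and 260 CPM in B1a and 296 and 285 CPM in B2 cells (log2 fold change -0.52, SE 0.28, adjusted p = 0.360 by edgeR). Cxxc1, which brings both to unmethylated CpG, had 133 and 113 CPM in B1a and 104 and 103 CPM in B2 cells (log2 fold change 0.25, SE 0.17, adjusted p = 0.486 by edgeR). B1a replicate 1 stood apart for Wdr5 and Dpy30, core subunits shared by these complexes. Wdr5 had 11.2 CPM in B1a replicate 1 against 45.2 in B1a replicate 2 and 50.4 and 46.8 CPM in B2 cells (log2 fold change -0.79, SE 0.62, adjusted p = 0.561 by edgeR). Dpy30 had 0 counts in B1a replicate 1, which allows up to 3 counts (0.259 CPM before TMM scaling), and 10.6 CPM in B1a replicate 2 against 11.3 and 16.9 CPM in B2 cells (adjusted p = 0.739 by edgeR).

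Among the other H3K4 and H3K27 demethylases the counts were even. Of 5 genes, 2 were higher and 2 lower in both B1a libraries (25.3% and 29.1% of all tested genes). An unadjusted edgeR p under 0.05 was found for 2, Kdm2b higher and Kdm5c lower in B1a (20.9% of all tested genes in either direction). The median log2 fold change was -0.06, which was 0.03 without B2 replicate 2. Kdm5c, an X-linked paralog of Kdm5a, had 186 and 202 CPM in B1a and 273 and 279 CPM in B2 cells (log2 fold change -0.51, SE 0.13, adjusted p = 0.0891 by edgeR). Kdm6a, the paralog of Kdm6b that sits in KMT2C and KMT2D complexes, had 136 and 131 CPM in B1a and 112 and 116 CPM in B2 cells (log2 fold change 0.23, SE 0.15, adjusted p = 0.482 by edgeR). Kdm1b, the paralog of Kdm1a, had 22.8 and 44.2 CPM in B1a and 45.7 and 51.0 CPM in B2 cells (log2 fold change -0.53, SE 0.38, adjusted p = 0.509 by edgeR). Both B1a libraries were thus lower for Kdm5c and Kdm1b and higher for Kdm6a, without a call.

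**Figure D5:**
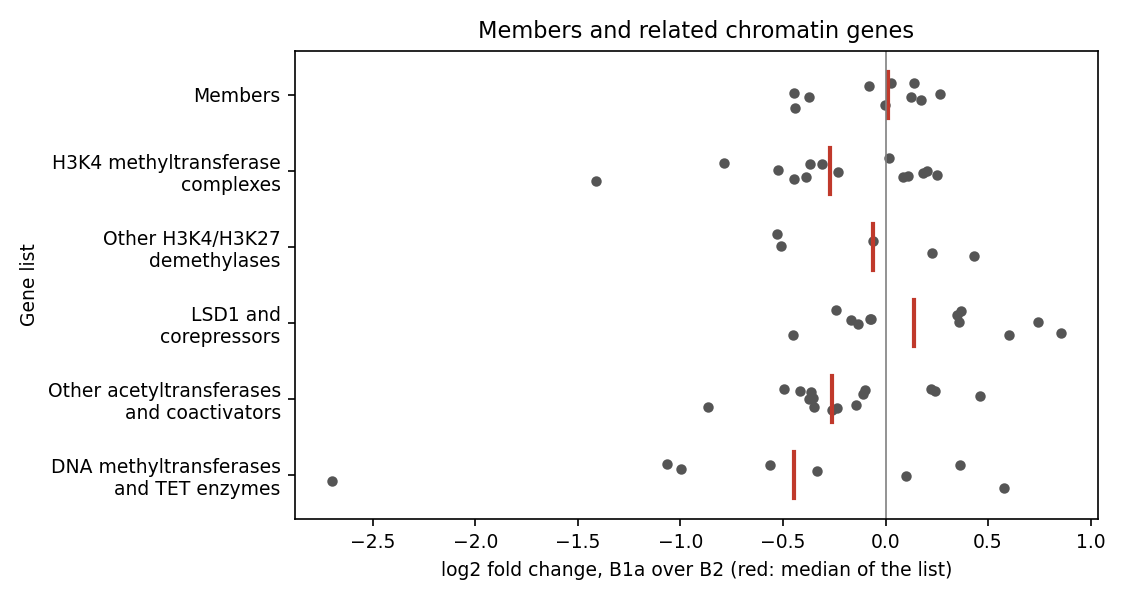
Log2 fold change (B1a over B2, edgeR, TMM scaling) of the 10 members and of 5 lists of related genes, 1 point for each gene, with the list's median in red. The medians are 0.01 for the members, -0.27 for the complex subunits, -0.06 for the demethylases, 0.14 for LSD1 and corepressors (-0.07 with at least 10 counts in every library and -0.31 on the TPM scale), -0.26 for acetyltransferases and coactivators and -0.45 for DNA methyltransferases and TET enzymes, and none of the genes shown was called.

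Windows of 250 bases before an annotated transcript start (RefSeq, GRCm38.p6) were at hand for Kmt2a, Kmt2c, Kmt2d, Kdm1a, Ep300 and Crebbp. All 6 windows were richer in CG than most: they held 29, 48, 26, 21, 25 and 44 CG dinucleotides in that order, where the median over 32851 promoters was 6. Genes with several starts have spans that reach into these windows: 63, 72 and 64 bases of the Kmt2a, Kmt2c and Kdm1a windows and all bases of the Kmt2d and Crebbp windows lie inside the RefSeq span of the gene, and the Ep300 window lies in an exon of a longer GENCODE transcript. The windows with the most and the fewest CG are shown to give that range, outside the span of the gene, 5′ to 3′ with each CG in capitals. In both sequences the last letter is the C of a CG whose G lies in the part left out, and it is not counted. For Kmt2c the part shown is chr5:25498856-25499033 on the minus strand with 32 CG, and for Kdm1a it is chr4:136602788-136602973 on the minus strand with 14 CG.
Kmt2c: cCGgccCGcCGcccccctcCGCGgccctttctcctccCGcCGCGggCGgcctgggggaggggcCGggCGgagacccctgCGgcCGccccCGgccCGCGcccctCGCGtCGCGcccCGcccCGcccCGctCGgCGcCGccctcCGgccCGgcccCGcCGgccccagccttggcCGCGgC
Kdm1a: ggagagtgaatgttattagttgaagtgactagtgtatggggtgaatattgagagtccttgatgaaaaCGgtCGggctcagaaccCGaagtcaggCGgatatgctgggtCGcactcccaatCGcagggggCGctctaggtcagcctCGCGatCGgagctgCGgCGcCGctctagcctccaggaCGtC
The GC box letters GGGCGG, on either strand, were in 5 of the 6 windows, against 32.7% of all promoters, and missing in that of Kdm1a. Kdm1a alone held CCAAT (33.9% of all promoters), and none held TATAAA (12.4%) or the ETS letters CCGGAAGT (2.88%). A match of letters is a description and does not show a bound site. Between 83.7% and 99.8% of all promoters had fewer CG than a given one of the 6 windows.

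The members lie on 8 chromosomes, and several share exonic bases with another annotated gene. In GENCODE vM21, Kmt2e (chr5:23433036-23504235, plus strand) shared 972 exonic bases with Srpk2, Kmt2a (chr9:44803355-44881352, minus strand) shared 378 with AC061963.1 and Kmt2c (chr5:25271795-25498855, minus strand) shared 274 with Gm42585, each on the opposite strand. Kdm6b (chr11:69398508-69420367, minus strand) shared 286 with Kdm6bos and Kdm5a (chr6:120364099-120444574, plus strand) shared 251 with Ccdc77, likewise on the opposite strand. Ep300 (chr15:81586209-81652077, plus strand) shared 54 bases with the small RNA gene Gm23880 on its own strand. Whether the counting used strand was not given in the sources used here, so reads in those bases are uncertain. Kmt2d (chr15:98831669-98874077, minus strand), Crebbp (chr16:4081334-4213957, minus strand), Kmt2b and Kdm1a (chr4:136550533-136602787, minus strand) shared none. Transcript lengths in the deposited tables ran from 3015 bases for Kdm1a to 19827 for Kmt2d. Tested genes of at least 50 CPM had a median log2 fold change of 0.69 for 155 genes up to 1000 bases long and of -0.06 for 129 genes over 10000 bases, and the part of length in the members' values was not tested.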

How the data were processed

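RNA-Seq libraries of 2 B1a and 2 follicular B2 samples were analyzed. The labels name total RNA with ribosomal RNA removed, whereas the study's text speaks of enrichment for polyadenylated RNA. The authors used the mm10 genome and RefSeq genes for alignment and RSEM for quantification (1.2.29 in the submitters' processing notes). They deposited, for 21970 gene entries, an expected count without normalization, TPM scaled to the same total in each library, FPKM, which was not used, and a signal column with the posterior standard deviation of each count.

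Entries of 1 symbol were added and the sums rounded to whole counts. Low genes were removed with filterByExpr, and TMM factors and quasi-likelihood tests came from edgeR 4.0.16 (glmQLFit and glmQLFTest, R 4.3.3, no replicate block). P-values were adjusted by Benjamini-Hochberg over 12078 genes, at a threshold of 0.05. SEs were derived from the F statistic, and intervals are at 95%. The EBSeq test of the study's methods was not run. Alternatives were DESeq2 1.42.0, upper quartile factors, limma-voom (limma 3.58.1) with and without a weight for each cell type, a stricter filter (10 counts or more in every library), a looser one (1 count in any library), limma on TPM where mean TPM reached 1 (log2 scale, pseudocount 1 or 0.1), entries not summed, a replicate block and each replicate left out. The fits were tested on simulated data.

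The members and the lists of related genes were chosen with earlier results of these data known. From each list every called gene was to be named, or, with none called, the 2 tested genes whose log2 fold change was largest in size, and Cxxc1, Setd1a, Setd1b, Kdm6a, Kdm5c, Dnmt3a and Tet2 in any case; 1 further gene of that rule is not reported here. Genes of like pattern were not sought, since 4 libraries cannot rank likeness. Positions came from RefSeq (GRCm38.p6) and exonic overlaps from GENCODE vM21.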

Additional observations from a re-analysis of the deposited data

How the results depend on the processing

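With 2 libraries a group, 1 library can decide a call. Pearson's r across tested genes, which are not independent replicates, was 0.836 within B1a, 0.966 within B2 and 0.788 to 0.858 between B1a and B2 libraries. Of the 10 members, 0 were called, but 2 were called with DESeq2, with limma-voom weighted by cell type and with a replicate block (Ep300 and Crebbp each time), and between 0 and 4 with a replicate left out (3 without B1a replicate 1 and 4 without B1a replicate 2, fits that called 31.0% and 48.9% of all tested genes), where the lone library is assumed to vary like the others. Of the related genes, 0 were called, against 5 with DESeq2, 1 with upper quartile factors, 2 with limma-voom, 2 with its weights, 3 with at least 10 counts, 2 with no filter, 5 with a replicate block and 0 to 28 with a replicate left out (15 without B1a replicate 1, 28 without B1a replicate 2). Of all genes 693 were called, against 1562 with DESeq2, 1415 with limma-voom weights, 1141 with no filter, 359 on log2(TPM + 0.1), 1481 (12.3%) with a replicate block and 539 to 6143 with a replicate left out (3953 of 12766 without B1a replicate 1, 6143 of 12575 without B1a replicate 2). The numbers shared by the labels gave no sign of pairing: deviations of same-numbered libraries from their group means correlated at -0.0347. The sign of a log2 fold change turned for Kmt2b (-0.0967 on log2(TPM + 1), -0.0976 on log2(TPM + 0.1)), Kmt2e (-0.0621, -0.0623), Kmt2d (-0.214, -0.2148, and -0.0408 with upper quartile factors) and Kdm6b (-0.1242, -0.1262), on scales where the median of all genes was -0.295, -0.322 and -0.0964. With a replicate left out it ran from -0.0743 to 0.1225 for Kmt2d (-0.0743 without B1a replicate 1, -0.0068 without B2 replicate 2), from -0.0412 to 0.028 for Kmt2c (0.028 without B1a replicate 1), from -0.2567 to 0.0723 for Kdm5a (0.0723 without B1a replicate 2) and from -0.0557 to 0.2818 for Kdm6b (-0.0557 without B1a replicate 2). The cause was not tested. Kmt2a, Kdm1a, Ep300 and Crebbp kept their sign in all 14 alternatives.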

Other observations

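The DNA methyltransferases and TET enzymes, listed with Uhrf1 and Tdg, made up a list of 8 tested genes. Of these, edgeR's quasi-likelihood test called 0 after Benjamini-Hochberg adjustment. At an unadjusted p under 0.05, 5 passed, 1 higher and 4 lower in B1a. Of all tested genes, 20.9% passed in either direction and 9.22% lower in B1a. The median log2 fold change was -0.45 (-0.03 over all tested genes). Dnmt3a, the de novo methyltransferase, had 189 and 127 CPM in B1a and 129 and 117 CPM in B2 cells, where the groups overlapped (log2 fold change 0.37, SE 0.22, adjusted p = 0.435 by edgeR). Dnmt3b, its paralog, had 7.88 and 7.10 CPM in B1a and 15.0 and 16.4 CPM in B2 cells (log2 fold change -1.06, SE 0.56, adjusted p = 0.364 by edgeR). Tet2, which oxidizes 5-methylcytosine, had 325 and 222 CPM in B1a and 171 and 195 CPM in B2 cells (log2 fold change 0.58, SE 0.21, adjusted p = 0.195 by edgeR), whereas Tet1 had 2.02 and 1.71 CPM in B1a and 15.8 and 8.81 CPM in B2 cells (log2 fold change -2.70, SE 0.87, adjusted p = 0.158 by edgeR). The B1a values of Tet2 thus lay above and those of Tet1 below the B2 values, and neither gene was called.

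LSD1 partners and corepressors gave 12 tested genes of 13, with 0 called. An unadjusted edgeR p under 0.05 was found for 1, lower in B1a (9.22% of all tested genes). Both B1a libraries were lower for 5 (29.1% of all tested genes) and higher for 2 (25.3% of all tested genes). Rcor3, a CoREST scaffold, had 41.2 and 16.2 CPM in B1a and 13.2 and 18.4 CPM in B2 cells, with B1a replicate 1 apart from the other 3 libraries (log2 fold change 0.86, SE 0.55, adjusted p = 0.459 by edgeR). Rcor2 had 5.73 and 2.88 CPM in B1a and 2.69 and 2.46 CPM in B2 cells (log2 fold change 0.74, SE 1.16, adjusted p = 0.801 by edgeR).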
